A study of Mus musculus with 6 samples.

Results

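The cytosolic ribosomal protein genes encode the protein parts of the ribosomes that translate messenger RNA in the cytoplasm. They were taken as all entries of the count tables whose symbol begins with Rpl or Rps followed by a number and at most a short suffix, together with the stalk genes Rplp0 to Rplp2 and Rpsa. Rps6k kinase genes and entries marked as pseudogenes by -ps in their symbol were left out. This gave 84 genes of 23282 entries, of which 81 passed the filter on low counts and were tested. The 3 others were Rpl10l with 4 counts over all libraries, Rpl39l with 9 and Rps4l with 0. Rps4l is annotated in GENCODE as a transcribed processed pseudogene, and the rule on symbols kept it. Rpl10l and Rpl39l are known mainly from testis.

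The CPN group was 3 samples of RAW 264.7 cells at day 5 of osteoclast differentiation whose treatment label reads CPN, and the control group was 3 samples of the same cells on the same day labelled control. RAW 264.7 is a single mouse macrophage line derived from a tumour, which forms bone-resorbing osteoclasts when driven to differentiate. The series is titled for a 60 kDa chaperonin, a protein that helps others fold. The labels give neither its source, dose and time of addition nor the agent that drove differentiation, and nothing in them shows whether samples are separate cultures. The p-values therefore reflect only how these samples varied, and that variation may be technical. Messenger RNA was counted at its 3′ ends.

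A mammalian ribosome is built from a large subunit, which forms peptide bonds, and a small subunit, which reads the messenger RNA. Nearly every one of their proteins is encoded by a single active gene, and because the proteins are needed in equal amounts their messenger RNAs are produced in concert. These messenger RNAs begin with a terminal oligopyrimidine element (a cytidine followed by a run of pyrimidines, called TOP), through which mTORC1 and the protein LARP1 set how strongly they are translated. Growing macrophages and osteoclasts both depend on a high supply of ribosomes.

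Library totals lay between 8267719 and 8423438 counts in CPN and between 7957228 and 9713938 in control. The macrophage markers summed to between 2828 and 3493 CPM (counts scaled to a common library size with TMM factors) in CPN and between 2941 and 3422 CPM in control, with 9 of 9 above 0 in every library. Within that list Adgre1 lay between 103.9 and 128.3 CPM in CPN, against 20.8 to 42.05 CPM in control, and Itgam between 188.8 and 302.6 CPM in CPN, against 53.41 to 64.94 CPM in control. Tyrobp lay between 423.4 and 506.7 CPM in CPN, against 728.3 to 757 CPM in control, and Spi1 between 179.3 and 227.5 CPM in CPN, against 270.1 to 313.5 CPM in control, so that list members differed in both directions without overlap. The osteoclast markers summed to between 1080 and 1682 CPM in CPN and between 3915 and 4079 CPM in control, and of these Calcr was at 0 in 5 libraries. Mmp9 went against the sum, with 236.5, 217.3 and 317.2 CPM in CPN 1 to 3, against 93.49, 65.64 and 101.9 CPM in control 1 to 3. Among markers of other cells, the granulocyte list reached between 17.99 and 34.58 CPM in CPN, which came almost wholly from S100a8, against at most 0.117 CPM in control. Elane, Camp and Ngp of that list were at 0 throughout. The stromal list reached between 16.2 and 21.4 CPM in CPN and between 0.196 and 7.79 CPM in control, and the T cell list, led by Lck, between 14.8 and 26.5 CPM in CPN and between 2.55 and 6.31 CPM in control. The part of these differences in the values below was not tested.

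The stretch around the transcription start is shown for members that the results turn on, namely Rpl34 and Rpl12, which rose, Rpl4, which had the next smallest p, the stalk proteins Rplp0 and Rplp2, Rpl37a, the 1 member with every CPN value below every control value, and the pairs Rpl22 with Rpl22l1 and Rps27 with Rps27l. The sequences are from RefSeq (GRCm38.p6), 63 of the 84 symbols were matched there, and each runs 5′ to 3′ from 50 bases before to 25 bases after a listed start. Capitals mark each pyrimidine tract, here a C followed by at least 6 bases that are C or T on the gene's own strand.
Rpl34 (chr3:130730313-130730387, minus strand): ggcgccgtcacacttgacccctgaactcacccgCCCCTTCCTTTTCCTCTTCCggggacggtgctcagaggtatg
Rpl12 (chr2:32961662-32961736, plus strand): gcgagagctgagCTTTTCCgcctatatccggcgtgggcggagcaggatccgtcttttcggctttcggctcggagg
Rpl4 (chr9:64173337-64173411, plus strand): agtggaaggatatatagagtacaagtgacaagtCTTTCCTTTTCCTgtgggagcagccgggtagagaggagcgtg
Rplp0 (chr5:115559417-115559491, plus strand): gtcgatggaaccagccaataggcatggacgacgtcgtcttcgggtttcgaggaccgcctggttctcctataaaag
Rplp2 (chr7:141447601-141447675, plus strand): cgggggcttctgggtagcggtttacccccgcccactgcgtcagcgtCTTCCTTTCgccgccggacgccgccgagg
Rpl37a (chr1:72711210-72711284, plus strand): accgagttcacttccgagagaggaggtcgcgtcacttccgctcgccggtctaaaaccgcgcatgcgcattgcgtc
Rpl22 (chr4:152325676-152325750, plus strand): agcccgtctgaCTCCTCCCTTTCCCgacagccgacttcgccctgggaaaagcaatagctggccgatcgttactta
Rpl22l1 (chr3:28805458-28805532, plus strand): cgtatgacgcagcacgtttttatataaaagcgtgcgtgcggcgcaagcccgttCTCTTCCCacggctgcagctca
Rps27 (chr3:90213624-90213698, minus strand): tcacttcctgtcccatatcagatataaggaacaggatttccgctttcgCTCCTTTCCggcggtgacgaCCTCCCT
Rps27l (chr9:66946036-66946110, plus strand): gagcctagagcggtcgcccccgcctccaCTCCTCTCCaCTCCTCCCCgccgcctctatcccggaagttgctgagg

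Within 50 bases of a listed start on either side, such a tract was present in 54 of the 63 matched members (85.7%), against 44.5% of all 27025 genes in the promoter table. In the sequences above, the tract of Rpl34, shown at the second of its 2 listed starts, spans the start. So do the tract of Rplp2 and the first tract of Rps27, whereas that of Rpl12 ends before the start. Rplp0 and Rpl37a show none in the printed stretch, though Rpl37a has a tract within 50 bases of a listed start. The printed stretch of Rplp0 ends in TATAAAAG, after the listed start and past the window used for TATAAA below. Listed starts were not checked against the starts used in these cells, so a missing tract here does not show that the messenger RNA lacks one. The motif CCGGAAG, the core bound by ETS factors, was present on either strand of the full promoter window (250 bases before to 50 after the start) in 26 members (41.3%) against 9.93% of all genes. Its reverse strand overlaps pyrimidine tracts in letters, and 25 members had both. The YY1-type motif AAGATGGC on either strand was present in 6 members (9.52%) against 3.19%, and TATAAA between 50 bases before and 10 after the start, read on the gene's own strand only, in 2 (3.17%) against 3.39%. These matches describe letters in a window and were not related to the change in any member.

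In CPN cells the ribosomal protein genes stayed close to control, with a small shift towards higher values. Of the 81 tested, 3 rose and 0 fell: Rpl34, a large-subunit protein, Rplp1, an acidic protein of the stalk, and Rpl12, which sits at the base of the stalk. Each was 1.47-fold higher in CPN, in the quasi-likelihood test of edgeR with p-values adjusted by Benjamini and Hochberg's method over 11092 genes. The 3 genes are 3.7% of the tested members, where 7.62% of all tested genes rose and 6.39% fell. With no adjustment, 14 members had p under 0.05, each of them higher in CPN. The share of all tested genes at that level was not counted. This count and later ones at an unadjusted p therefore have no background beside them. At an unadjusted p under 0.05, by DESeq2 or by limma-voom, 0 lower members were found.

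The fitted log2 fold change was above 0 in 71 of the 81 members, against 49.5% of all tested genes. Its median was 0.20 in the members, against -0.0079 over all tested genes and 0.044 over those averaging at least 100 CPM. All 3 CPN values lay above all 3 control values in 23 members (28.4%), and this was so for 16.9% of all tested genes and for 26% of the 1880 genes averaging at least 100 CPM. The opposite arrangement was found in 1 member, where it was found in 15.7% of all tested genes. Among genes of at least 100 CPM, 15.9% rose and 11.1% fell, and 77 members were in that class, of which 3 (3.9%) rose.

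The range of change was narrow. The 95% interval of the fitted change lay inside a 2-fold change in either direction for 80 of the 81 members, and inside a 1.5-fold change for 45. The exception was the low-count Rpl3l. Replicates of a member varied by a median coefficient of variation of 10.2% in CPN and 9.87% in control.

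**Figure D1:**
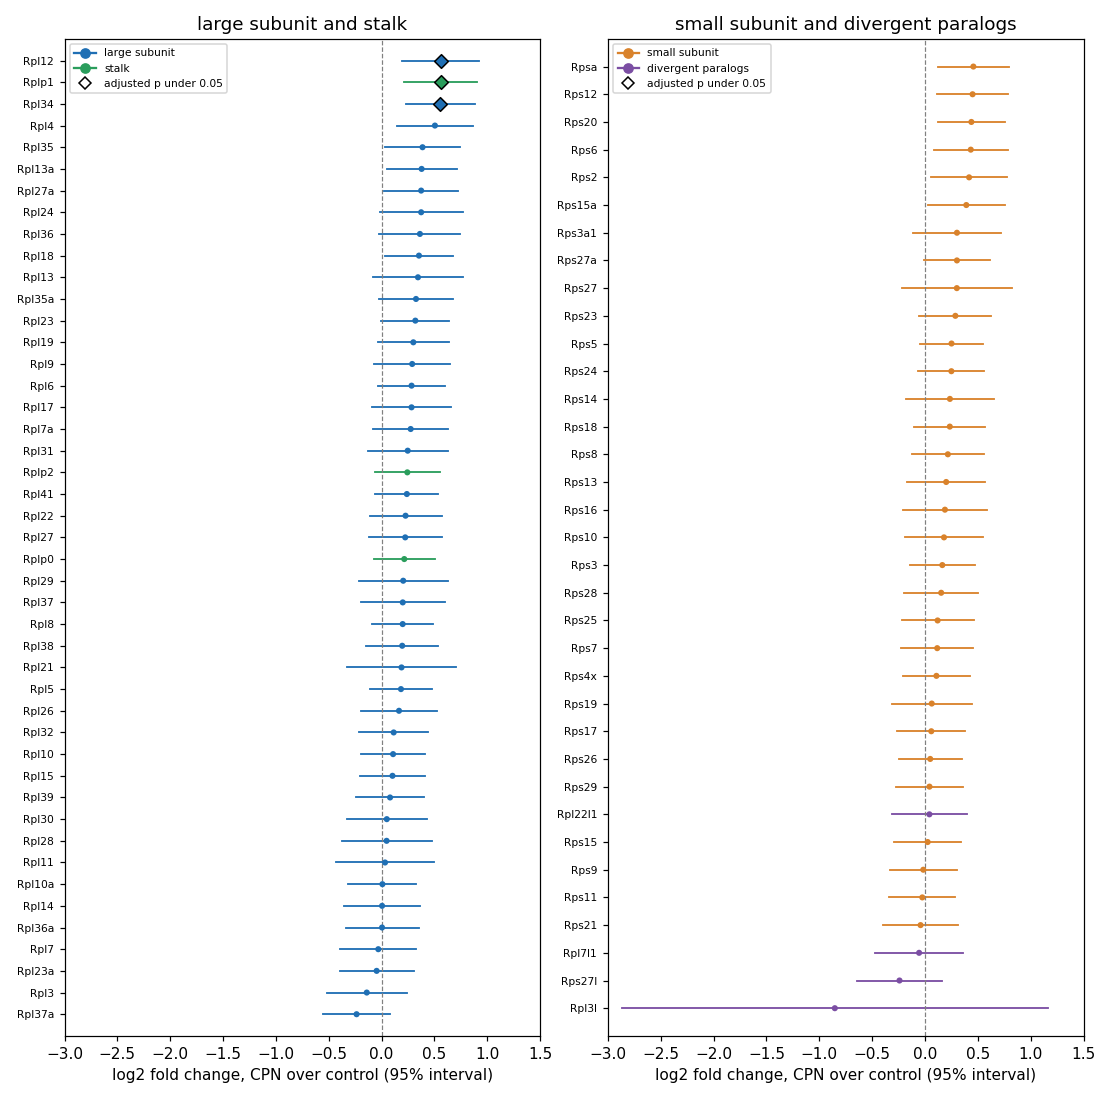
Fitted log2 fold change of CPN over control (points) with its 95% interval (lines) for 80 of the 81 tested members (1 is not drawn), large subunit and stalk on the left, small subunit and divergent paralogs on the right; diamonds mark the 3 genes with an adjusted p under 0.05. Most points lie between 0 and 0.5, and the interval of Rpl3l, the lowest row on the right, alone reaches past a 2-fold change.

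The size of this shift depended on the scaling and on single libraries. With library totals alone in place of TMM, the median over all genes moved to -0.13 and that of the members to 0.088, so that 54 of 81 were above 0 and 0 passed, while the members stood 0.22 above the median of all genes, against 0.21 with TMM. The same scaling gave 690 genes higher and 914 lower over all tested genes, against 845 higher and 709 lower with TMM. Without control 1, control 3 or CPN 2, 0 members passed, without CPN 1 or CPN 3 there were 2, and without control 2 there were 13. Over all tested genes, 565 of 11471 were higher without CPN 1, 645 of 11443 without CPN 3 and 1131 of 11470 without control 2.

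**Figure D2:**
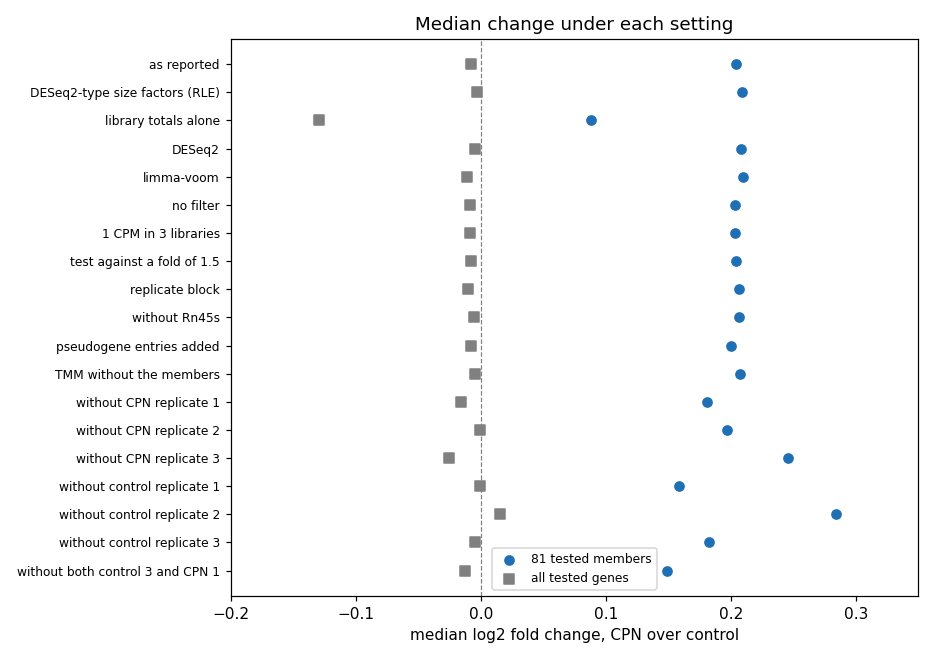
Median log2 fold change of CPN over control for the 81 members (circles) and all tested genes (squares) under each setting. The members' median lies between 0.088 and 0.28 in every setting shown and stays above that of all genes.

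Summed over the 84 genes, the members took 7.898%, 7.411% and 6.776% of the counts in CPN 1 to 3, against 6.29%, 7.195% and 6.714% in control 1 to 3. CPN 1 was highest and control 1 lowest, and the groups overlapped because control 2 lay above CPN 3. The ribosomal RNA precursor Rn45s took 9.038%, 16.55% and 15.9% of the counts in CPN 1 to 3 and 12.96%, 15.11% and 11.24% in control 1 to 3. CPN 1, with the largest share of the members, had the smallest share of Rn45s. With Rn45s left out of the total, the members made up 8.683%, 8.881% and 8.057% in CPN 1 to 3, against 7.227%, 8.475% and 7.565% in control 1 to 3, and the groups still overlapped. A bulk sample cannot tell fewer cells of a type from less RNA per cell.

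Library by library, 47 members had their lowest value in control 1 and 15 in control 3, while 33 had their highest in CPN 1 and 28 in CPN 2. Control 2 held the highest value of 11 members and the lowest of 1. CPN 3, the lowest CPN library by share, held the highest value of 6 members. The ratio of counts in all Rpl genes to counts in all Rps genes was 1.402, 1.46 and 1.34 in CPN 1 to 3. It was 1.351, 1.334 and 1.334 in control 1 to 3. The Rpl side here includes the stalk genes and the paralogs. Of its counts, Rplp1 alone, which rose, gave 57685, 51144 and 39839 in CPN 1 to 3. In control 1 to 3 it gave 37911, 40426 and 34667. The ratio without the stalk genes was not computed.

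**Figure D3:**
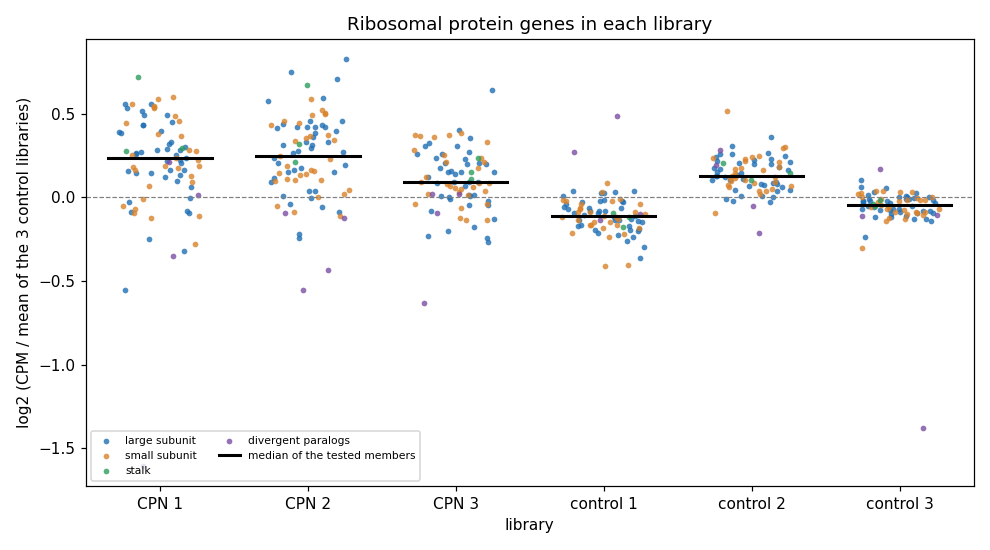
Each point is 1 tested member in 1 library, as log2 of its CPM over its mean in the 3 control libraries, with black bars at the median of the 81 members. The medians of CPN 1 and CPN 2 are the highest, and control 2 lies above CPN 3.

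The stalk of the large subunit is an arm of acidic proteins that recruits the elongation factors. Rplp1 had 6922, 6698 and 4943 CPM in CPN 1 to 3, against 3719, 4843 and 4052 CPM in control 1 to 3. The groups did not overlap, though the lowest CPN value was close to the highest control value. Its log2 fold change was 0.56 ± 0.16 (SE, edgeR adjusted p = 0.0349).

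Rpl12 binds ribosomal RNA where the stalk is attached. It had 274, 364 and 347 CPM in CPN 1 to 3, against 220, 240 and 209 CPM in control 1 to 3, with every CPN library higher (log2 fold change 0.56 ± 0.17, SE, edgeR adjusted p = 0.0435). Rpl12 (chromosome 2, 32961559 to 32965345) overlaps Lrsam1, which had 3578 counts against 13895 for Rpl12 and did not pass (log2 fold change 0.10, edgeR adjusted p = 0.845).

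The other stalk proteins did not pass. Rplp0, the central protein that carries the others, had 2068, 1974 and 1895 CPM in CPN 1 to 3, against 1601, 1831 and 1687 CPM in control 1 to 3, with no overlap (log2 fold change 0.21 ± 0.13, SE, edgeR adjusted p = 0.354). Rplp2, the partner of Rplp1, had 1550, 1574 and 1363 CPM in CPN 1 to 3, against 1165, 1395 and 1231 CPM in control 1 to 3, so that CPN 3 was below control 2 (log2 fold change 0.24 ± 0.14, SE, edgeR adjusted p = 0.322). The difference between the changes of these genes was not tested.

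Rpl34 (chromosome 3, 130726831 to 130730398, minus strand) had the smallest p of the members. It had 1437, 1643 and 1225 CPM in CPN 1 to 3, against 936, 1030 and 963 CPM in control 1 to 3, and all CPN values were above all control values (log2 fold change 0.56 ± 0.15, SE, edgeR adjusted p = 0.0272). Its entry marked as a pseudogene, Rpl34-ps1, had 1248, 1441 and 897 CPM in CPN 1 to 3, against 746, 829 and 754 CPM in control 1 to 3, and also rose (log2 fold change 0.62 ± 0.18, SE, edgeR adjusted p = 0.0334). The libraries of the copy have the same order within CPN as those of Rpl34, and reads of the 2 entries may be shared. With the 7 pseudogene entries added to their parents, the same 3 members passed.

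Calls for these 3 genes did not hold when any of several single libraries, from either group, was left out. Rpl34 no longer passed when CPN 1, CPN 2, control 1 or control 3 was left out, with edgeR adjusted p up to 0.129. The same libraries ended the call of Rplp1 (up to 0.149), and CPN 2, CPN 3, control 1 or control 3 that of Rpl12 (up to 0.183). Their fitted changes stayed between 0.46 and 0.66 for Rpl34, 0.47 and 0.70 for Rplp1, and 0.49 and 0.67 for Rpl12.

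**Figure D4:**
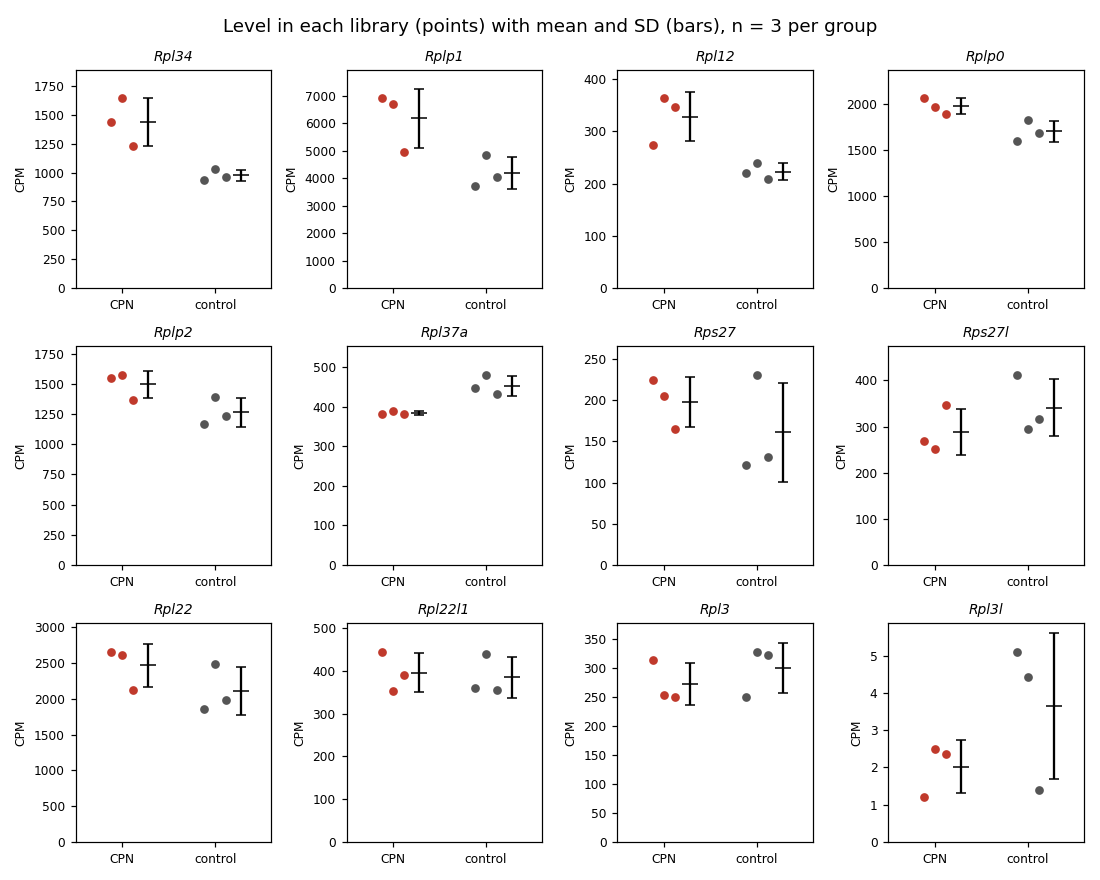
CPM in each library for 12 members, CPN in red at the left and control in grey at the right, with the mean and SD (n = 3 per group) beside the points and axes from 0. Rpl34, Rplp1 and Rpl12 show no overlap with CPN higher, and Rpl37a none with CPN lower.

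Of the 43 large-subunit genes (Rpl12 and Rpl34 included, Rplp0 to Rplp2 and divergent paralogs not), 39 had a fold change above 0, and the changes ran from -0.24 to 0.56 with a median of 0.205 on the log2 scale. Rpl4, whose loop lines the tunnel through which the new protein leaves, had 2581, 3943 and 2942 CPM in CPN 1 to 3, against 2276, 2347 and 2051 CPM in control 1 to 3. Its CPN values were all higher, and it did not pass (log2 fold change 0.50 ± 0.17, SE, edgeR adjusted p = 0.0614), though it did by DESeq2 (adjusted p = 0.0272) and by limma-voom (0.0345). The 8 proteins of the exit tunnel and its rim had a median of 0.26, with none called (0 at edgeR's adjusted p, 2 at an unadjusted p under 0.05, and Rpl4 alone by DESeq2).

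Rpl13a, which in human monocytic cells also joins a complex that silences inflammatory messenger RNAs after interferon-gamma, had 1044, 1411 and 1195 CPM in CPN 1 to 3, against 886, 984 and 938 CPM in control 1 to 3. The groups did not overlap, and the change of 0.38 ± 0.15 on the log2 scale did not pass (SE, edgeR adjusted p = 0.133). Rpl5 and Rpl11 form a particle with the 5S ribosomal RNA, and when free they bind and inhibit MDM2. Rpl5 had 1336, 1275 and 1192 CPM in CPN 1 to 3, against 1071, 1169 and 1111 CPM in control 1 to 3, without overlap. It overlaps Fam69a, which had 8260 counts against 60655 for Rpl5. Rpl11 had 147, 249 and 267 CPM in CPN 1 to 3, against 213, 217 and 218 CPM in control 1 to 3, so that CPN 1 was below and the other CPN libraries above every control. Neither passed (edgeR adjusted p = 0.451 for Rpl5 and 0.95 for Rpl11).

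Rpl22 and Rpl32 were among the 6 members with the most counts. Rpl22, needed in mice for a class of T cells, had 2659, 2618 and 2126 CPM in CPN 1 to 3, against 1853, 2493 and 1984 CPM in control 1 to 3. Rpl32 had 2396, 1977 and 1864 CPM in CPN 1 to 3, against 1712, 2148 and 1905 CPM in control 1 to 3. Both overlapped between groups and neither passed (edgeR adjusted p = 0.411 for Rpl22 and 0.704 for Rpl32). Rpl32 overlaps Cand2, which had 61492 counts beside the 101760 of Rpl32. The use of strand in counting is not given, so reads from the stretch they share may have been counted for either gene.

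Rpl37a, a zinc-binding protein of the large subunit, was the 1 member with all CPN values below all control values. It had 381, 390 and 383 CPM in CPN 1 to 3, against 448, 480 and 431 CPM in control 1 to 3. Its log2 fold change of -0.24 ± 0.15 did not pass (SE, edgeR adjusted p = 0.347).

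In the small subunit, 28 of 31 genes had a fold change above 0, the changes ran from -0.042 to 0.46 with a median of 0.20 on the log2 scale, and 0 passed edgeR's adjusted p, with 6 at an unadjusted p under 0.05. DESeq2 called 3 of the 31 higher, Rps20, Rpsa and Rps12, and limma-voom called Rps20 and Rpsa. Over all tested genes, DESeq2 called 1076 of 12424 higher and limma-voom 936 of 11092. The median differed by less than 0.01 from that of the large subunit.

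Rps20, a protein of the small subunit's head, had 3256, 3379 and 3106 CPM in CPN 1 to 3, against 2188, 2822 and 2176 CPM in control 1 to 3 (log2 fold change 0.44 ± 0.15, SE, edgeR adjusted p = 0.0633). Rpsa, near the site where messenger RNA leaves the ribosome, had 951, 895 and 841 CPM in CPN 1 to 3, against 581, 754 and 622 CPM in control 1 to 3 (log2 fold change 0.46 ± 0.15, SE, edgeR adjusted p = 0.0686). In both genes control 2 was the highest control, and no CPN value reached down to it. Rps12 had 368, 426 and 367 CPM in CPN 1 to 3, against 261, 305 and 284 CPM in control 1 to 3 (edgeR adjusted p = 0.0784).

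Rps6, the ribosomal protein that S6 kinases phosphorylate downstream of mTORC1, had 552, 530 and 433 CPM in CPN 1 to 3, against 338, 401 and 383 CPM in control 1 to 3. Its groups did not overlap, and it did not pass (log2 fold change 0.43 ± 0.16, SE, edgeR adjusted p = 0.099). Rps14, whose human counterpart is lost in a form of myelodysplastic syndrome, had 3384, 2519 and 2356 CPM in CPN 1 to 3, against 1756, 2875 and 2381 CPM in control 1 to 3. It varied as much within groups as between them (edgeR adjusted p = 0.498). Rps14 overlaps Ndst1, which had 1022 counts against 128703 for Rps14 and fell (log2 fold change -2.03, edgeR adjusted p = 0.00142).

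The 7 proteins at messenger RNA entry, exit and decoding had changes from 0.025 to 0.46 on the log2 scale. At the entry, Rps2 had 162, 159 and 152 CPM in CPN 1 to 3, against 117, 123 and 114 CPM in control 1 to 3, with no overlap (edgeR adjusted p = 0.126). At the decoding site, Rps15 had 865, 851 and 802 CPM in CPN 1 to 3, against 736, 895 and 844 CPM in control 1 to 3, and the groups overlapped (edgeR adjusted p = 0.941).

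The divergent paralogs, relatives of a core gene that differ in sequence and often in tissue, showed no called change in the 4 that were tested. By edgeR 0 passed, 0 had an unadjusted p under 0.05, and 0 passed by DESeq2 or limma-voom. Of these, 1 had a fold change above 0, against 70 of the 77 core members, a description of 4 genes with no test of the difference.

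Rps27l, a p53 target, had 268, 252 and 346 CPM in CPN 1 to 3, against 412, 295 and 317 CPM in control 1 to 3, which overlapped (log2 fold change -0.24 ± 0.19, SE, edgeR adjusted p = 0.471, 95% interval -0.65 to 0.16). Its parent Rps27 had 225, 205 and 166 CPM in CPN 1 to 3, against 122, 231 and 131 CPM in control 1 to 3. As a percentage of Rps27, Rps27l stood at 118.9%, 123.3% and 208.8% in CPN 1 to 3, against 337.8%, 127.8% and 242.4% in control 1 to 3. The ratio was lowest in CPN 1 and highest in control 1, and the groups overlapped. Every 50-base window at the 3′ end of Rps27 has a copy elsewhere, including in the retrogene Rps27rt, which had 589, 563 and 648 CPM in CPN 1 to 3, against 493, 537 and 547 CPM in control 1 to 3, so the counts of Rps27 are uncertain.

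Rpl22l1, the paralog of Rpl22, had 444, 353 and 390 CPM in CPN 1 to 3, against 359, 439 and 356 CPM in control 1 to 3 (log2 fold change 0.042 ± 0.16, SE, edgeR adjusted p = 0.911, 95% interval -0.31 to 0.40). It amounted to 16.71%, 13.49% and 18.35% of Rpl22 in CPN 1 to 3, against 19.38%, 17.62% and 17.93% in control 1 to 3, and the groups overlapped. Rpl7l1, a nucleolar relative of Rpl7, had 77.5, 71.9 and 71.8 CPM in CPN 1 to 3, against 69.9, 73.9 and 86.1 CPM in control 1 to 3 (edgeR adjusted p = 0.90). Rpl3l, which replaces Rpl3 in striated muscle, had 1.2, 2.49 and 2.36 CPM in CPN 1 to 3, against 5.10, 4.43 and 1.40 CPM in control 1 to 3. It had 149 counts in all, against 14588 for Rpl3, and its interval of -2.87 to 1.16 on the log2 scale allows a large change in either direction. Rpl3 overlaps Syngr1, which had 5631 counts and fell (log2 fold change -1.19, edgeR adjusted p = 0.00217).

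Ribosomal protein genes have many processed pseudogenes, and identical stretches can take each other's reads. In the last 200 bases of the principal GENCODE transcript, 48 of the 81 tested members had at least 1 window of 50 bases that occurs in a transcript of another annotated gene, and in 31 more than 50% of windows did. The median log2 fold change was 0.20 in the 48 members with a shared window and 0.205 in the 33 with none. Where a gene had several principal transcripts the longest was used, and its end may not be the end that was counted. Rps15a, Rplp2, Rpl14 and Rpl31 were among the 33, yet each has a measured pseudogene entry. The 33 are therefore not free of copies, and the part of shared reads in the changes was not tested. The windows of Rpl34 were shared to 46.4% and those of Rplp1 to 45%, and those of Rpl12 to 0%. The 7 pseudogene entries in the tables held 282829 counts, 7.89% of the members' 3586018. The most abundant, Rplp2-ps1, had 3446, 3980 and 3901 CPM in CPN 1 to 3, against 3378, 3566 and 3274 CPM in control 1 to 3, and did not pass (edgeR adjusted p = 0.531). Wdr89 had nearly the same values, 3448, 3987 and 3904 CPM in CPN 1 to 3, against 3382, 3572 and 3279 CPM in control 1 to 3, so the counts of these 2 entries may be largely the same reads.

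The other genes of ribosome production were set beside the members. Of the ribosomal proteins that the naming rule misses, Fau, which makes a small-subunit protein fused to a ubiquitin-like protein, differed by 0.11 on the log2 scale (edgeR adjusted p = 0.709). Gnb2l1, the gene of the scaffold RACK1, had 0.15 (0.637) and Rpl36al 0.27 (0.279), and none of these 3 passed. By DESeq2 and limma-voom they did not pass either.

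Of 79 tested ribosome biogenesis factors, 3 (3.8%) rose and 0 fell by edgeR, where 7.62% of all tested genes rose and 6.39% fell, and the median log2 fold change was 0.016. With no filter 1 of the list fell, and without control 2 there were 2. Wdr75, a part of the complex that processes the small-subunit RNA, averaged 128 ± 17.9 CPM in CPN and 69.4 ± 7.56 CPM in control (SD, n = 3 each, edgeR adjusted p = 0.00891). Rrp9, a protein of the U3 particle, averaged 66.5 ± 14.3 CPM in CPN and 34.9 ± 5.24 CPM in control (SD, n = 3 each, edgeR adjusted p = 0.0214). Npm1, the nucleolar chaperone nucleophosmin, averaged 2425 ± 342 CPM in CPN and 1709 ± 142 CPM in control (SD, n = 3 each, edgeR adjusted p = 0.0404). The call of Npm1 ended with library totals alone (0.0976) and without control 1, control 3, CPN 2 or CPN 3 (up to 0.204), and that of Rrp9 without control 1, control 3, CPN 1 or CPN 3 (up to 0.0957).

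The 20 genes of RNA polymerase I and its factors, which transcribe ribosomal RNA, had a median of -0.067. Of these 1 (5%) fell and 0 rose, where 6.39% of all tested genes fell and 7.62% rose. The gene was Polr2f, a subunit shared by the nuclear RNA polymerases, at 77.0 ± 4.81 CPM in CPN and 136 ± 22.5 CPM in control (SD, n = 3 each, edgeR adjusted p = 0.0128). Its call ended without CPN 2 (0.0646). None of the 11 elongation and termination factors passed edgeR's adjusted p, DESeq2 or limma-voom. Eif5a, which helps the ribosome through difficult stretches, had the smallest p of these, with 953 ± 136 CPM in CPN and 1296 ± 200 CPM in control (SD, n = 3 each, edgeR adjusted p = 0.101), and Eef1a1, which delivers transfer RNA, averaged 3566 ± 276 CPM in CPN and 2939 ± 329 CPM in control (SD, n = 3 each, edgeR adjusted p = 0.232).

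Of the 17 other classical TOP messenger RNAs, 1 (5.88%) rose, 2 (11.8%) fell and 14 did not pass, with 12 fold changes above 0, where 7.62% of all tested genes rose and 6.39% fell. The gene that rose was Npm1. Vim, the intermediate filament protein vimentin, fell to 499 ± 71.6 CPM in CPN, against 1174 ± 221 CPM in control (SD, n = 3 each, edgeR adjusted p = 0.000546). Eif4b, an initiation factor that assists the helicase, fell to 286 ± 26.3 CPM in CPN, against 418 ± 35.6 CPM in control (SD, n = 3 each, edgeR adjusted p = 0.0361), a call that ended without control 1, control 3 or any CPN library (up to 0.168). The median of the list was 0.16.

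The 30 regulators of TOP messenger RNAs and of ribosomal protein production had a median of 0.10. Of these 2 (6.67%) rose and 1 (3.33%) fell, where 7.62% of all tested genes rose and 6.39% fell. The number that rose was 3 by limma-voom or with the replicate block, 4 with no filter or without control 2, and 0 to 2 in the other settings. Sesn1, a sestrin that restrains mTORC1, fell to 16.8 ± 4.58 CPM in CPN, against 70.7 ± 3.91 CPM in control (SD, n = 3 each, edgeR adjusted p = 0.000211). Mdm2, the ubiquitin ligase that free ribosomal proteins inhibit, rose, with 252 ± 38.2 CPM in CPN and 135 ± 21.8 CPM in control (SD, n = 3 each, edgeR adjusted p = 0.00669), a call that ended without control 3 (0.0523). Mycn, a MYC family factor, rose, with 231 ± 12.7 CPM in CPN and 141 ± 25.3 CPM in control (SD, n = 3 each, edgeR adjusted p = 0.0195), a call that ended with library totals alone (0.0627) and without control 1, CPN 1 or CPN 2 (up to 0.0806). Eif4ebp1, a translation repressor that mTORC1 switches off, did not pass, with 428 ± 41.2 CPM in CPN and 221 ± 127 CPM in control (SD, n = 3 each, edgeR adjusted p = 0.0532). Its values were 455, 448.5 and 380.6 CPM in CPN 1 to 3, against 166.5, 365.5 and 130 CPM in control 1 to 3, without overlap. Myc, the best known activator of ribosome production, averaged 14.9 ± 1.26 CPM in CPN and 6.34 ± 1.62 CPM in control (SD, n = 3 each, edgeR adjusted p = 0.0827). The members' chaperones and importins gave 0 called of 15 by edgeR, with Pdcd2l, a relative of the Rps2 chaperone PDCD2, at 46.5 ± 15.6 CPM in CPN and 22.5 ± 10.2 CPM in control (SD, n = 3 each, edgeR adjusted p = 0.0704). By DESeq2 and by limma-voom 1 of these 15 was called higher, where 1076 of 12424 and 936 of 11092 tested genes were higher. Of the genes called in these lists, Vim and Sesn1 passed in every setting run, and the others did not pass in the test against a 1.5-fold change or without both control 3 and CPN 1.

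**Figure D5:**
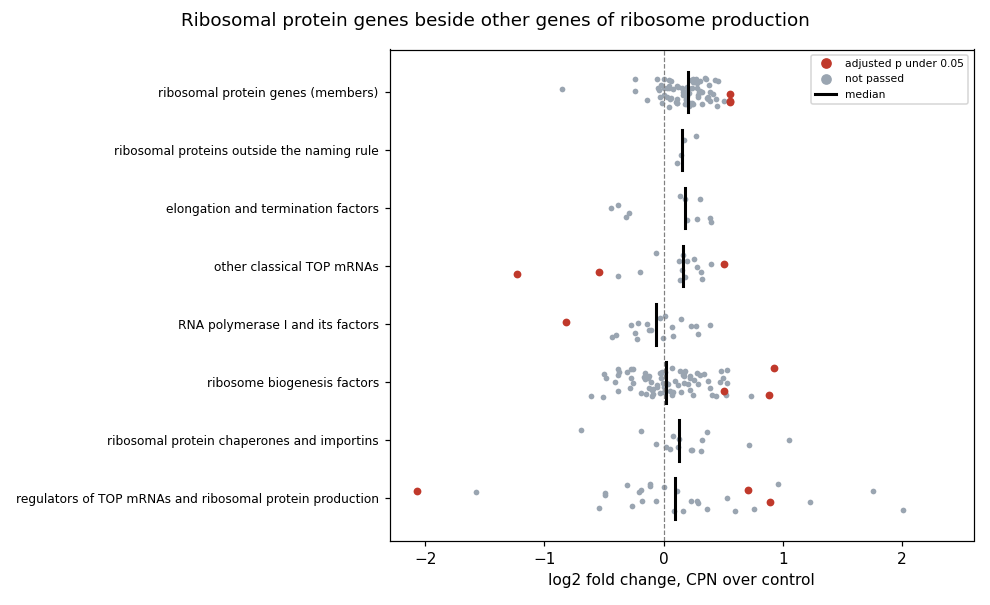
Log2 fold change of CPN over control for each tested gene (points) of the members and of 7 related lists, red where the adjusted p was under 0.05, with black bars at the medians. The members have a median of 0.20, and the regulators spread from -2.07 to 2.01.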

How the data were processed

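The deposited values are raw counts per gene, 1 table of 23282 entries per sample. Per the submitters' processing notes, Bowtie2, bedtools and mm10 were used. The sources used here do not give their versions, the annotation, the use of strand or the treatment of reads with several alignments. Libraries were made from 3′ ends with a QuantSeq kit, per the labels' protocols, so a count is little affected by transcript length.

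Counts were scaled by TMM, filtered with filterByExpr (minimum count 10, minimum total 15) and compared with edgeR 4.0.16 in R 4.3.3 by its quasi-likelihood test, CPN over control, with Benjamini-Hochberg adjustment over 11092 genes at 0.05. CPM are these counts scaled to library size. The SE is the size of the log2 fold change divided by the square root of F, and its 95% interval uses the moderated degrees of freedom. Members and lists were chosen with earlier results of these data known, and members were grouped by role with their values known. Named members are those that passed, the 4 smallest p in each subgroup, the 6 with the most counts and the tested paralogs. Rpl37a and members shown beside a named one were chosen after their values were seen. Some items are not reported here. In other lists up to 4 genes with the smallest p could be named.

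Alternatives were other scaling (limma 3.58.1, DESeq2 1.42.0 as other tests), other filters, a test against a 1.5-fold change, the replicate block, removal of Rn45s, pseudogene counts added, and each library left out. Gene positions and transcripts are from GENCODE M21 (GRCm38, the assembly of mm10). The code was tested on simulated counts. Counts of replicates differed beyond sampling noise in every pair. Among 707 genes with means of 6 to 12 counts, zeros made up 14% in CPN 1 and 41.16% in CPN 2 (control 3 had 23.76%), and CPN 1 and control 3 had the fewest.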

Additional observations from a re-analysis of the deposited data

How the results depend on the processing

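The members that passed were the same 3 with DESeq2-type size factors, TMM computed without the members, removal of Rn45s, pseudogene counts added, and a filter of 1 CPM in 3 libraries, and no setting called a lower member. Of the 81 members, 7 were higher by DESeq2 and 6 by limma-voom, each including the 3, and 4 with no filter (Rpl4 added). Beside these, 1076 of 12424 tested genes were higher by DESeq2, 936 of 11092 by limma-voom and 1046 of 14630 with no filter. The number of higher members was 0 with library totals alone, in a test against a 1.5-fold change, and with CPN 1 and control 3 both left out. The last of these settings was chosen after seeing the data. Leaving out 1 library gave 0 to 13 higher members and a median of 0.16 to 0.28. The median was 0.088 with library totals alone. Over all genes, the 1.5-fold test gave 424 higher and 273 lower, removal of both control 3 and CPN 1 gave 273 higher and 173 lower, and leaving out 1 library gave 525 to 1131 higher and 359 to 823 lower. The cause was not tested. The difference in share of counts was 0.63 percentage points, 0.78 without Rn45s in the total and 0.67 with pseudogene counts. Same-numbered samples deviated from their group means with correlations of -0.074, 0.014 and 0.039 over all tested genes. Differently numbered samples gave -0.089 to 0.089. Over the members, the same-numbered samples gave -0.59, -0.031 and -0.17. These values show no pairing by number, but with 3 samples per group they cannot exclude it. With the replicate block, 2 members passed (Rpl34 and Rplp1, with Rpl12 at an edgeR adjusted p of 0.078). Over all genes, 748 higher and 578 lower genes passed with the block, and Npm1 (0.0788), Rrp9 (0.0517) and Eif4b (0.0778) did not. Depth limited Rpl3l most, and for 45 of the 81 members the 95% interval lay inside a 1.5-fold change.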

Other observations

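Ribosomal protein genes commonly carry small nucleolar RNA genes, which guide the modification of ribosomal RNA, inside their introns. In GENCODE, 30 of the 84 members hold 59 annotated snoRNA genes between them. The entries that were measured had few counts, such as 113 for Snora33 in Rps12, against 16910 for Rps12 itself. Snora33 did not pass (edgeR adjusted p = 0.807). Snord83b, inside Rpl3, had 50 counts in all, at 1.68, 1.57 and 2.98 CPM in CPN 1 to 3 and with 0 counts in every control library. It had an edgeR adjusted p of 0.0355. It came through the filter on low counts only by its CPN libraries, so this p-value is not taken as support for a change. These examples were chosen after their values were seen.

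Over the 6 libraries, the log2(CPM + 1) profiles most like that of Rpl34 outside the members were those of Akap3 (Pearson r = 0.998), Fer (0.997), Pecr (0.994), Eda2r (0.992) and the second entry of Gm5801 (0.991). These are the highest of many genes searched over 6 libraries that fall into 2 groups, so they describe a shared order of libraries only. The mean of Akap3 was 3.84 CPM in CPN, against 0.0799 CPM in control. Fer, a tyrosine kinase, had a mean of 47.4 CPM in CPN, against 24.1 CPM in control.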
